A study of Mus musculus with 2 samples.

Results

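The vascular endothelial growth factor (VEGF) axis was described in the mouse adrenal gland through 10 genes, taken by symbol from the 55536 genes of the deposited tables. They are the ligands Vegfa, Vegfb, Vegfc and Pgf, the receptors Flt1, Kdr and Flt4, the co-receptors Nrp1 and Nrp2, and Plvap, the protein of the diaphragms that span endothelial fenestrae. All 10 were found, and all had a mean of 20 or more counts over the libraries. Total RNA was sequenced from whole adrenal tissue of B6CASTF1/J males (an F1 hybrid between C57BL/6J and CAST) aged 2 months. The 2 libraries form 1 group, labelled biological replicates 1 and 2, for which 300 ng of RNA was depleted of ribosomal RNA, given ERCC spike-ins (synthetic RNAs) and prepared with a directional kit. That 2 animals were used is stated by the sample descriptions alone, since the animal number in the library descriptions and the donor field do not differ. A single group leaves no conditions to compare and no test, and any difference between the libraries compares 1 library with 1 library.

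VEGF ligands are secreted and bind receptor tyrosine kinases on endothelial cells, of which Kdr (VEGFR2) carries most of the growth and permeability signal and Flt1 (VEGFR1) binds ligand tightly while signalling weakly. Flt4 (VEGFR3) is the receptor of Vegfc, best known in lymphatic vessels, and the neuropilins hold VEGF forms that carry a basic tail. Endocrine glands are drained by fenestrated capillaries, whose upkeep is known to depend on VEGF from the gland's own cells. The adrenal cortex is among the most densely supplied tissues, with steroid-making cells lying against sinusoidal capillaries. Because whole glands were sequenced, fewer cells of a type and less RNA per cell cannot be told apart in any value given here.

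The libraries held 36512736 and 34454892 expected counts in replicates 1 and 2 by the alignment-based quantification, and 35315387 and 33397838 estimated counts by the read-based one. Levels are alignment-based TPM (transcript abundance scaled for length and to a fixed total per library), which can be set against each other between genes. In both libraries 8 of the 10 genes had at least 1 TPM, where 54.2% of all protein-coding genes (11931 of 22015) reached it. In order of mean level the genes were Vegfa, Plvap, Vegfb, Nrp1, Kdr, Flt1, Nrp2, Flt4, Vegfc and Pgf. The libraries' values overlapped between the neighbours Vegfb and Nrp1 and between Nrp1 and Kdr, so these 3 genes could not be ordered. All other neighbours were in the same order in both libraries by alignment-based TPM. For Vegfc and Pgf in replicate 1 that order rested on 0.84 against 0.82 TPM. The read-based quantification reversed it there, with 1.21 TPM for Vegfc and 1.35 TPM for Pgf, so these 2 genes were not firmly ordered.

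**Figure D1:**
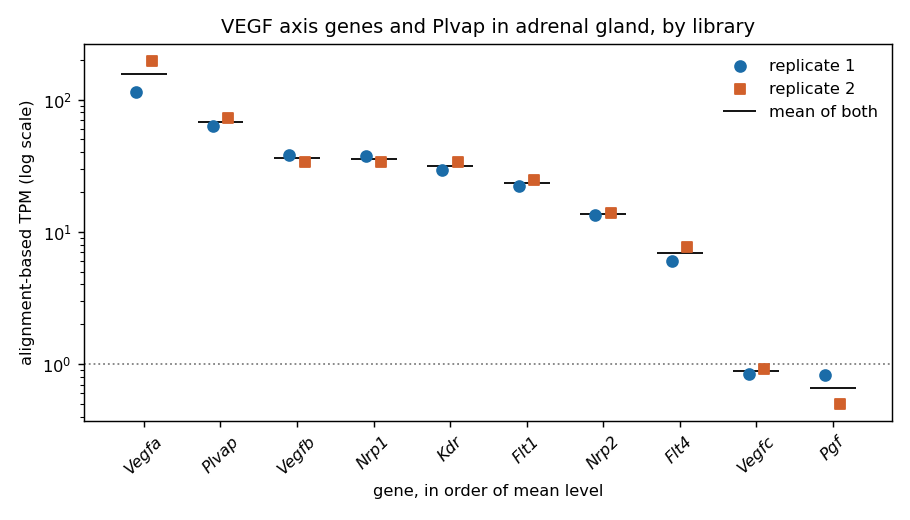
Alignment-based TPM (log axis) of the 10 genes in replicate 1 (circles) and replicate 2 (squares), with the mean of both as a line and 1 TPM dotted. Vegfa stands highest at 114 and 195 TPM, and Vegfc and Pgf lie under 1 TPM in both libraries.

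Vegfa (ENSMUSG00000023951.17, chr17:46016993-46032369, minus strand, GRCm38), the ligand of both Flt1 and Kdr, was the most abundant gene of the axis. It had 114.37 TPM in replicate 1 and 195.14 in replicate 2, from 8859 and 14341 counts, a mean of 155 ± 57.1 TPM (SD, n = 2). That mean, which includes the transcripts annotated as noncoding that are described below, ranked 286th of the 22015 protein-coding genes. The libraries lay far apart for this gene, and the bounds the authors deposited for its TPM did not overlap, at 109 to 118 in replicate 1 and 187 to 199 in replicate 2. Scaled for library size, the log2 ratio of replicate 1 over replicate 2 was -0.70, with a counting interval of -0.74 to -0.67. Of all 15660 genes compared, 4.21% lay as far from 0 or farther.

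Vegfa protein forms differ in their carboxy terminus, where exons 6 and 7 encode stretches that bind heparan sulphate and, for exon 7, neuropilins. In mouse the form with neither is known as VEGF120, that with exon 7 alone as VEGF164 and that with both as VEGF188. The sequences that separate them are shown from exon 5 to the stop codon, with the exons between exon 5 and the last exon in capitals. Exon 7 spans 132 bases at chr17:46020991-46021122 and exon 6 spans 72 bases at chr17:46022277-46022348, counted in the numbering used for the gene, in which a transcript may skip either. The sequences are those of the reference transcripts (GENCODE M21), 5′ to 3′, and the CAST allele may differ from them.
Vegfa-201: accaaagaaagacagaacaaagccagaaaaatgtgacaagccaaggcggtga
Vegfa-202: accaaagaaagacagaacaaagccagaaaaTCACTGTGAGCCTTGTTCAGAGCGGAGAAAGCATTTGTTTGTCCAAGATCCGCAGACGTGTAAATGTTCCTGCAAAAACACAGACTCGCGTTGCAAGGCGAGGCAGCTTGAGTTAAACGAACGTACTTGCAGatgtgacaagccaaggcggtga
Vegfa-207: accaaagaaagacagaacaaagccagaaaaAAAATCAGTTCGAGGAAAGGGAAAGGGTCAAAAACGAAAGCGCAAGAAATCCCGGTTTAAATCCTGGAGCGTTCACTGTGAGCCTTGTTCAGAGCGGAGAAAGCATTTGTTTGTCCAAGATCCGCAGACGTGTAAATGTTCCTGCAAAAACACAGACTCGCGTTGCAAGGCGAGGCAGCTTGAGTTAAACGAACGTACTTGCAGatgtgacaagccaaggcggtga

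Transcripts with exon 7 alone were the main coding form of Vegfa. They made up 59.9% of its coding TPM in replicate 1 and 59.3% in replicate 2. Transcripts with exons 6 and 7 took 20.2% and 19.6%, and transcripts with neither took 19.9% and 21.1%, a mean of 20.5 ± 0.863% (SD, n = 2). The near equality of these 2 forms depended on the unit. As shares of coding counts, both exons averaged 12.8% by alignment and 12.5% by reads, and neither averaged 18.7% by alignment and 10.2% by reads, so the order of the 2 forms could not be settled. Although the gene's level differed between the libraries, its form shares of alignment-based TPM lay within about a percentage point of each other. The read-based quantification gave 59.0% and 62.1% for exon 7 alone, 19.5% and 17.7% for both exons, and 21.5% and 15.6% for neither, so the last share was less close between the libraries there. In replicate 2 it also assigned 4.59% to Vegfa-203, a transcript with exon 6 alone that is named after its value was seen. It rested on 49.3 estimated counts and had 0% in replicate 1.

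Among single transcripts, Vegfa-202 (exon 7 alone) led by both quantifications, with 41.77 TPM in replicate 1 and 71.93 TPM in replicate 2. Vegfa-201, which ends in the short form, had 13.86 and 25.61 TPM, and Vegfa-207, with both exons, had 14.08 and 23.82 TPM. Each of the 3 was higher in replicate 2. Vegfa-211, which also lacks both exons and is annotated with almost no untranslated sequence, had 0 TPM in both libraries by alignment, against 17.8 and 21.7 TPM by the read-based quantification. The annotation also limits these shares, since the last exon is 337 bases long in Vegfa-207 and 1887 bases in Vegfa-201 and Vegfa-202.

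A large part of the gene's TPM fell on transcripts annotated as noncoding with a retained intron. They held 39.0% of all Vegfa TPM in replicate 1 and 37.8% in replicate 2, but only 10.8% and 10.7% of its counts. Vegfa-210 had 20.30 and 37.35 TPM and Vegfa-209 had 20.72 and 29.04 TPM. These transcripts are short, 852 and 463 bases against 3451 for Vegfa-202, and TPM divides by length. Reads of unspliced RNA over the same introns cannot be told apart from them in these tables.

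**Figure D2:**
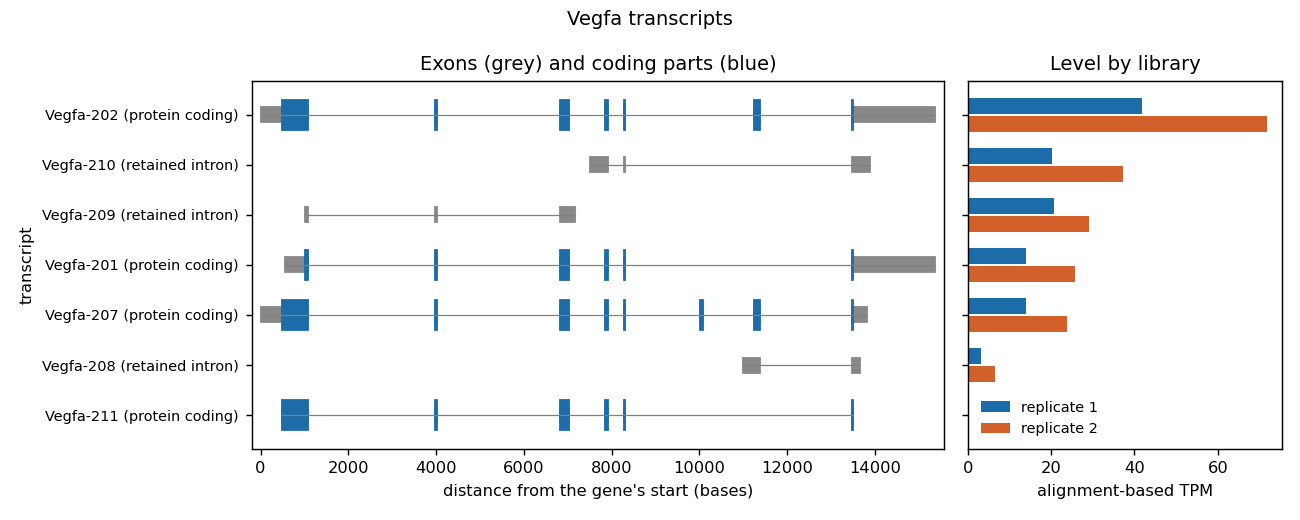
Exons (grey), coding parts (blue) and alignment-based TPM of the Vegfa transcripts that held 5% or more of the gene's TPM in either library by either quantification, with exon positions as distance from the gene's start in bases. The bars for replicate 2 exceed those for replicate 1 in each transcript with a value, and Vegfa-211 stands at 0 in both.

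Vegfb (ENSMUSG00000024962.13, chr19:6982473-6987651, minus strand), a ligand of Flt1 that is linked to fatty acid handling in muscle and fat, reached 38.05 TPM (replicate 1) and 33.59 TPM (replicate 2), a mean of 35.8 ± 3.15 TPM (SD, n = 2). It was the other abundant ligand. Its 1656 and 1356 counts gave a log2 ratio of 0.28, with a counting interval of 0.17 to 0.38, so it was higher in replicate 1 where Vegfa was lower. Vegfb has a heparin-binding form (VEGFB167) and a freely diffusing one (VEGFB186), which arise from a short and a long exon 6. The stretch of 101 bases that only the long exon holds, at chr19:6985496-6985596, is in capitals.
Vegfb-201: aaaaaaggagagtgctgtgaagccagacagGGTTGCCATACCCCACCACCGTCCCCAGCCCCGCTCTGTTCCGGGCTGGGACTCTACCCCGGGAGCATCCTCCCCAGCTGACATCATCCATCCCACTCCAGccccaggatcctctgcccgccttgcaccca
Vegfb-202: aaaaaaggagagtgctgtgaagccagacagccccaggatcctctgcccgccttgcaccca
The forms were near equal. Vegfb-201, with the long exon, took 52.0% of coding TPM in replicate 1 and 56.3% in replicate 2, and Vegfb-202, with the short one, took 48.0% and 43.7%. The long form led in both libraries by both quantifications.

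Vegfc and Pgf were scarce. Vegfc (ENSMUSG00000031520.6, chr8:54077606-54187096, plus strand), the lymphatic growth factor that binds Flt4, had 0.84 TPM in replicate 1 and 0.92 in replicate 2, from 77 and 63 counts. Pgf (ENSMUSG00000004791.7, chr12:85166635-85177790, minus strand), the placental growth factor that binds Flt1, had 0.82 and 0.50 TPM, from 47 and 25 counts. The log2 ratio of Pgf was 0.89 with a wide counting interval of 0.17 to 1.66, and 2.23% of all genes lay as far from 0. For Vegfc the ratio was 0.28 with an interval of -0.22 to 0.78, which did not separate the libraries. Pgf was also the only one of the 9 genes with more than 1 transcript whose leading transcript differed between quantifications, Pgf-201 by alignment and Pgf-204 by reads. The other 8 had the same leading transcript, where 76.2% of protein-coding genes at 1 TPM or more with several transcripts did.

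Summed over the 4 ligands the TPM was 154.08 in replicate 1 and 230.15 in replicate 2. Vegfa held 74.2% of that sum in replicate 1 and 84.8% in replicate 2. The sum uses gene totals. Transcripts annotated as noncoding held 39.0% and 37.8% of Vegfa TPM but 0.394% and 1.67% of Vegfb TPM. The spread in the ligand sum followed Vegfa, since the others together were no higher in replicate 2.

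Kdr (ENSMUSG00000062960.10, chr5:75932827-75978458, minus strand), the main signalling receptor, had 29.50 TPM in replicate 1 and 33.91 in replicate 2, a mean of 31.7 ± 3.12 TPM (SD, n = 2). The counts were 6591 and 7051, and the log2 ratio was -0.11, with a counting interval of -0.16 to -0.06. Kdr-201, its 1 coding transcript, held 96.7% of the gene's TPM in each library. Kdr therefore stood close between libraries, and its annotated variety was small.

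Flt1 (ENSMUSG00000029648.13, chr5:147561604-147726011, minus strand), the high-affinity receptor, had 22.07 TPM in replicate 1 and 24.51 in replicate 2, a mean of 23.3 ± 1.73 TPM (SD, n = 2). Its log2 ratio was -0.06, and the interval of -0.11 to -0.00 barely left out 0. Flt1 is made as a membrane receptor and as a secreted form that keeps the ligand-binding part, lacks the transmembrane and kinase parts and traps ligand. The forms part after exon 13, where the membrane transcript (ENSMUST00000031653.11) splices on and the secreted one (ENSMUST00000110529.5) reads into the intron. The last 30 shared bases are in lower case, followed in capitals by the first 60 bases of the next exon (membrane, chr5:147634464-147634523) or the intron-encoded coding end with its stop codon (secreted, chr5:147639130-147639224).
Flt1 membrane form: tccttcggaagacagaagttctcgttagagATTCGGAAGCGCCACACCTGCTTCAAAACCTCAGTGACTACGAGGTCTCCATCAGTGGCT
Flt1 secreted form: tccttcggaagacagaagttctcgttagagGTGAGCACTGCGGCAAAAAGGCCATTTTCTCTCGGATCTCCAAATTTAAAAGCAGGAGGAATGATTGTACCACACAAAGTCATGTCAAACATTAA

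The secreted form made up 28.9% of the coding Flt1 TPM in replicate 1 and 29.7% in replicate 2, a mean of 29.3 ± 0.539% (SD, n = 2), and the membrane form 71.1% and 70.3%. The read-based quantification put the secreted share at 29.3% in both libraries. The membrane transcript had 13.26 and 14.58 TPM, and the secreted transcript had 5.40 and 6.16 TPM. Both transcripts were thus present in nearly the same proportion in the 2 libraries. The last exon of the secreted transcript covers 4066 bases of an intron of 4701 bases, and 92 of the 4066 are coding. Reads of unspliced Flt1 RNA in that intron cannot be told apart from the secreted form, and total RNA holds unspliced RNA.

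A further transcript, the noncoding ENSMUST00000031652.4, which ends after exon 11 in a last exon of its own, depended on the quantification. It had 3.11 and 3.32 TPM by alignment, 14.1% and 13.6% of all Flt1 TPM, against 1.70 and 0.91 TPM by reads, where the total TPM of Flt1 was higher.

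**Figure D3:**
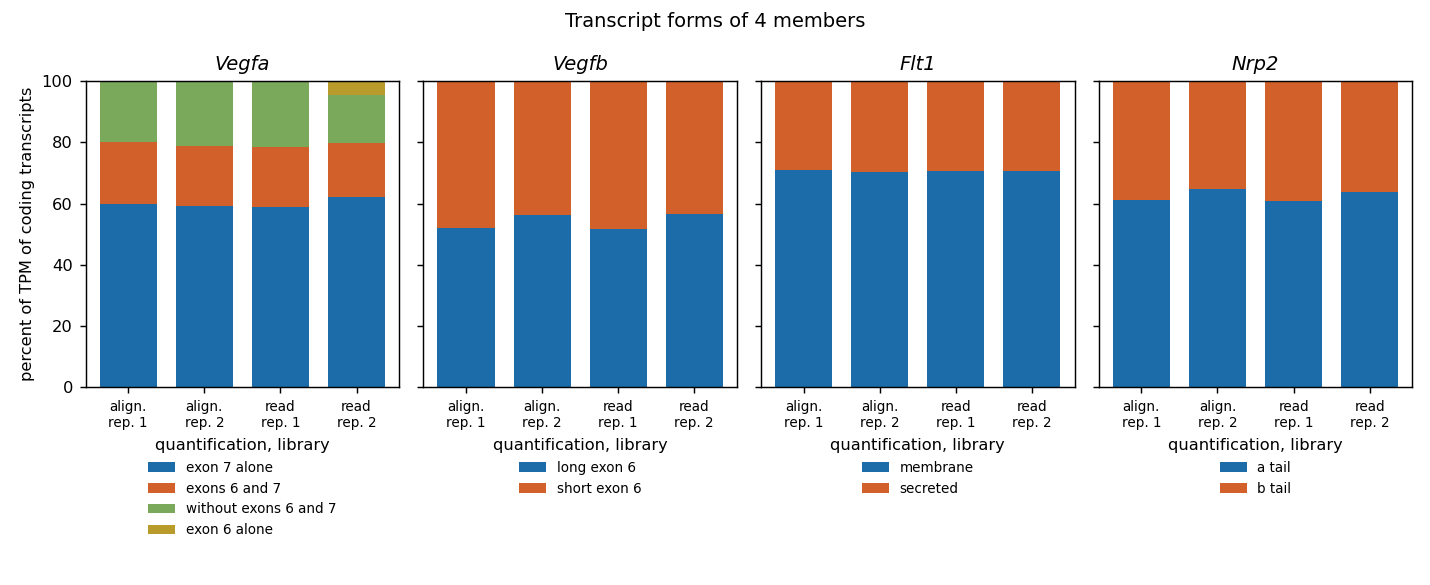
Percent of coding TPM held by each form of Vegfa, Vegfb, Flt1 and Nrp2, for replicates 1 and 2 by the alignment-based (align.) and then the read-based (read) quantification. The Flt1 bars are nearly the same height in all 4 columns, with 28.9% to 29.7% secreted, and exon 6 alone appears for Vegfa only in the read-based column of replicate 2.

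Flt4 (ENSMUSG00000020357.3, chr11:49609263-49652739, plus strand) was the least abundant receptor. It had 6.06 TPM in replicate 1 and 7.72 in replicate 2, a mean of 6.89 ± 1.17 TPM (SD, n = 2), from 1428 and 1687 counts. The log2 ratio was -0.25, with a counting interval of -0.35 to -0.15. Its 1 coding transcript held 96.5% and 95.5% of the TPM. Fenestrated capillaries are known to carry Flt4 as well as lymphatic vessels, so the level in a whole gland does not assign it to either.

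The balance among the receptors was steady between the libraries. They summed to 57.63 TPM in replicate 1 and 66.14 TPM in replicate 2. Kdr held 51.2% and 51.3% of that sum, Flt1 38.3% and 37.1%, and Flt4 10.5% and 11.7%. Kdr was 1.34 times and 1.38 times as high as Flt1 by gene totals, which for Flt1 include the secreted and noncoding transcripts. Kdr-201 had 28.54 TPM in replicate 1 and 32.79 in replicate 2, against 13.26 and 14.58 for the membrane Flt1 transcript. Vegfa, by contrast, was 3.88 times as high as Kdr in replicate 1 and 5.75 times in replicate 2. Those folds use gene totals. Transcripts annotated as noncoding held 39.0% and 37.8% of Vegfa TPM but 3.25% and 3.33% of Kdr TPM. Over coding transcripts alone the folds would be smaller. Of the log2 ratios of replicate 1 over replicate 2, that of Vegfa was -0.70 and that of Kdr -0.11.

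Nrp1 (ENSMUSG00000025810.9, chr8:128358604-128503363, plus strand), the co-receptor that joins exon 7 forms of Vegfa to Kdr and also binds class 3 semaphorins, had 37.71 TPM in replicate 1 and 33.79 in replicate 2, a mean of 35.8 ± 2.77 TPM (SD, n = 2). Its log2 ratio was 0.25, with a counting interval of 0.19 to 0.31, so it was higher in replicate 1 where the 3 receptors were lower. Its 1 coding transcript held 94.9% and 94.5% of the TPM. The microRNA gene Mir1903 lies within Nrp1 on the same strand.

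Nrp2 (ENSMUSG00000025969.15, chr1:62703285-62818695, plus strand), a co-receptor for Flt4 and Vegfc, had 13.39 TPM in replicate 1 and 13.76 in replicate 2, a mean of 13.6 ± 0.262 TPM (SD, n = 2), the smallest log2 ratio of the 10 genes at 0.03 with an interval of -0.04 to 0.11. Nrp1 was 2.82 times and 2.46 times as high. Gm37121 on the same strand and Gm29083 on the other overlap Nrp2, and whether strand was used in counting is not given in the sources used here. Nrp2 transcripts end in an a tail or a b tail, which replace each other as transmembrane and cytoplasmic parts. The first 60 bases of each last exon are in capitals for the leading a tail transcript (ENSMUST00000102822.8, chr1:62815333-62815392) and the leading b tail transcript (ENSMUST00000114155.7, chr1:62795709-62795768), and the third sequence marks in capitals the extra 15 bases (chr1:62786302-62786316) that a further a tail transcript (ENSMUST00000075144.11) holds.
Nrp2 a tail: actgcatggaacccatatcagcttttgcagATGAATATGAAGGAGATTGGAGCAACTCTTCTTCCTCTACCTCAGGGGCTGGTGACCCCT
Nrp2 b tail: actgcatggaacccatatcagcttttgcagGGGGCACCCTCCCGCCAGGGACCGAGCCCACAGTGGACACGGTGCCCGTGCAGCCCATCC
Nrp2 a tail with extra bases: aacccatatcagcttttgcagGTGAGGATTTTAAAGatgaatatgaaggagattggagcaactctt

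The a tail was the more common. It took 61.1% of coding Nrp2 TPM in replicate 1 and 64.6% in replicate 2, and the b tail 38.9% and 35.4%. The read-based quantification gave 60.7% and 63.9% to the a tail. Transcripts with an added exon of 51 bases took 17.9% and 17.2%. A b tail transcript with the extra 15 bases (ENSMUST00000027112.12) was assigned 100.1 expected counts in replicate 1 and 114.7 in replicate 2. It is 4216 bases long, against 6534 for the leading b tail transcript. Its counts therefore need not come from reads over the 15 bases, and such reads were not examined. With the a tail the extra bases could not be placed firmly either. The transcript shown with them had 267.91 expected counts in replicate 1 and 0 in replicate 2. Its deposited bounds, 0.26 to 2.69 TPM and up to 1.19 TPM, overlap.

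Plvap (ENSMUSG00000034845.6, chr8:71497765-71511752, minus strand), which forms the diaphragms of fenestrae and caveolae and is low in barrier-type brain capillaries, was the most abundant vessel gene of the 10. It had 63.29 TPM in replicate 1 and 72.45 in replicate 2, from 4643 and 4949 counts, and its mean ranked 722nd among protein-coding genes. The log2 ratio was -0.10, with an interval of -0.16 to -0.04. Plvap was 2.15 times and 2.14 times as high as Kdr, so the ratio of these endothelial genes was nearly the same in both libraries. It has 1 annotated transcript and overlaps Gtpbp3 on the other strand.

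Between the libraries 2 of the 10 genes were over 1.5-fold apart, where 6.45% of all genes were (1010 of 15660). Vegfa was lower in replicate 1 (3.35% of all genes were over 1.5-fold lower) and Pgf was higher (3.10% of all genes). The counting interval left out 0 for 8 genes, with Vegfb, Pgf and Nrp1 higher in replicate 1 and Vegfa, Flt1, Kdr, Flt4 and Plvap lower. Over all genes the interval left out 0 for 34.1%, a share that rests on depth, and most members were deeply counted. The median distance from 0 was 0.25 on the log2 scale over the 10 genes and 0.13 over all genes.

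**Figure D4:**
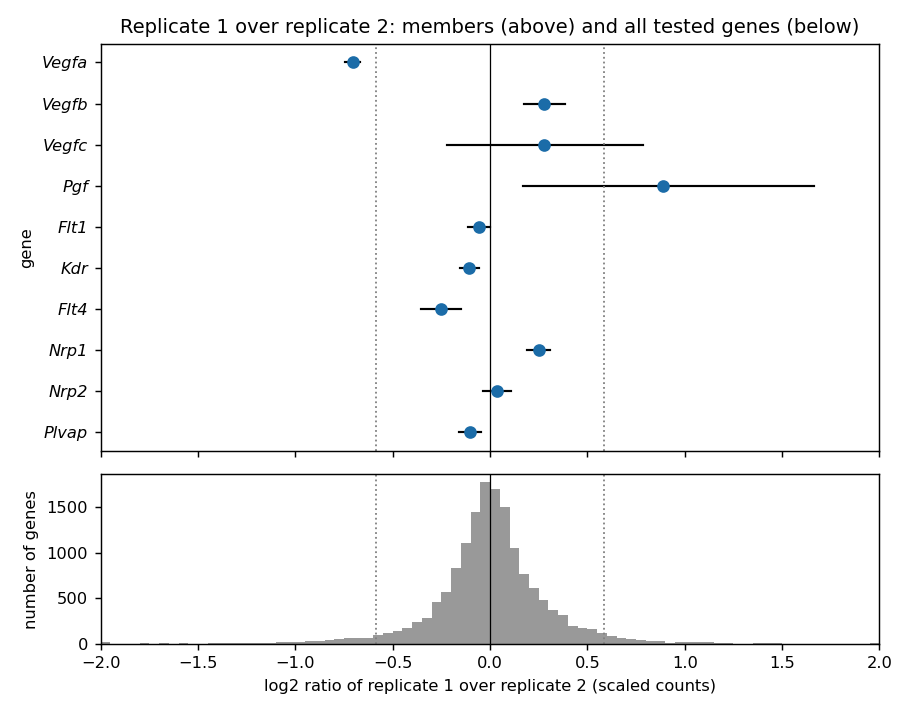
Log2 ratio of replicate 1 over replicate 2 for the 10 genes, with 95% counting intervals (above), and the number of all 15660 genes by ratio (below, values beyond 2 in the outermost bins), with 1.5-fold dotted. Vegfa at -0.70 and Pgf at 0.89 lie past the dotted lines, and the other 8 genes lie between them.

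The libraries also differed in the genes of other cell types. For brown adipocyte genes the median ratio was 0.93 on the log2 scale, with 7 of 8 genes over 1.5-fold higher in replicate 1 and a summed level of 1560.02 TPM in replicate 1 and 796.08 TPM in replicate 2. Red cell genes had a median of 0.76, white adipocyte genes 0.50, capsule and stroma genes 0.31 and chromaffin genes 0.27, whereas cortical steroidogenic genes stood at -0.09 and macrophage genes at 0.03. Cortical steroidogenic genes summed to 15531.5 TPM in replicate 1 and 17262.9 TPM in replicate 2. Fat, blood and stroma genes were thus higher in replicate 1 while Vegfa was lower there. Their part in the Vegfa, Vegfb, Pgf and Nrp1 values was not tested.

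General endothelial genes were present and close between libraries. Of 22 pan-endothelial genes 21 had 1 TPM or more in both libraries, where 54.2% of all protein-coding genes did. That share is also the background for such counts in the lists that follow. The list's median log2 ratio was -0.00, and no gene was over 1.5-fold apart by alignment-based counts. Ecscr, named after its value was seen, had a ratio of 0.54 there and 0.64 by read-based counts, past 1.5-fold. Emcn, a sialomucin of capillaries and veins, had 41.53 TPM in replicate 1 and 46.19 in replicate 2, and Egfl7, a secreted endothelial matrix protein, had 42.29 and 44.37 TPM. Eng, a co-receptor for TGF-beta ligands, had 36.92 and 39.49 TPM, and Pecam1, an endothelial junction protein, had 27.44 and 28.69 TPM. The level of Plvap was above that of each of the 22 genes in both libraries.

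The list of fenestrae and caveolae held 15 genes, Plvap among them. It also held the regulator Nr2f2, which is no part of either structure and is counted again among venous genes. Of the 15 genes 14 had 1 TPM or more in both libraries, and Cav3, the muscle caveolin, had 0 in both. Cavin1, a coat protein of caveolae, had 122.93 TPM in replicate 1 and 120.73 in replicate 2. Cav1, the main caveolin, had 72.60 and 49.05 TPM with a log2 ratio of 0.59, the 1 gene of the list over 1.5-fold apart. That call was lost by total count, at 0.51, and by TPM, at 0.57. Both are also abundant in adipocytes, whose list was higher in replicate 1, and the part of those cells was not tested. Msn, a linker of membrane and actin, had 50.19 and 53.81 TPM.

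Barrier-type capillary genes were mixed. Abcb1a, an efflux pump, had 19.49 TPM in replicate 1 and 22.67 in replicate 2, and Cldn5, the endothelial tight junction claudin, had 4.90 and 4.20 TPM. The transporters Slco1a4 and Slco1c1, chosen for mention after their values were seen, had 0.06 and 0.09 TPM and 0.14 and 0.11 TPM. Other transporters of the list were higher, with Slc7a5 at 11.26 and 16.53 TPM and Slc2a1 at 6.35 and 6.58 TPM. Mfsd2a, also named after its value was seen, had 1.07 and 2.49 TPM. Its log2 ratio was -0.91, past 1.5-fold. In all 7 of 10 genes of the list reached 1 TPM in both libraries, where 54.2% of all protein-coding genes did. The count therefore says little about barrier-type genes as such. The label of fenestrated endothelium rests here on Plvap, which also forms the diaphragms of caveolae. Its level above the pan-endothelial genes was measured in whole gland and not in sorted capillaries. The part of fat tissue in that level was not tested.

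Lymphatic genes were lower. Of 7 genes 4 reached 1 TPM in both libraries, where 54.2% of all protein-coding genes did. The same share applies to the venous and arterial counts that follow. Prox1, the regulator of lymphatic identity, which other cell types also express, had 9.85 TPM in replicate 1 and 10.26 in replicate 2, and Lyve1, a hyaluronan receptor, had 3.63 and 2.96 TPM. Flt4 lay between these genes in both libraries. Venous genes reached 1 TPM in 4 of 6 cases, led by the regulator Nr2f2 at 38.07 and 40.77 TPM and the receptor Ephb4 at 19.95 and 20.28 TPM. Arterial genes, Vegfc among them, did so in 4 of 8. The elastic fibre protein Fbln5 led them at 18.22 and 16.48 TPM. The ephrin Efnb2, the partner of Ephb4, had 5.21 and 4.87 TPM. Lower genes, named after their values were seen, were venous Selp (0.32 and 0.61 TPM) and Ackr1 (0.59 and 0.55 TPM). Arterial Gja5 (0.61 and 0.45 TPM) and Bmx (0.19 and 0.11 TPM) were named likewise. Which cells of the gland hold Nr2f2 and Fbln5 was not tested.

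Mural cell genes, of which 10 of 11 reached 1 TPM in both libraries, had a median log2 ratio of 0.25, and 9 of the 10 with enough counts were higher in replicate 1. Tagln, an actin-binding protein of smooth muscle, had 77.61 TPM in replicate 1 and 67.24 in replicate 2, and Rgs5, a pericyte regulator of G proteins, had 14.73 and 11.91 TPM. Among the endothelial lists the median ratio was -0.00 for pan-endothelial and -0.01 for venous genes. It was 0.15 for lymphatic genes (6 of 6 with enough counts higher in replicate 1) and 0.18 for arterial genes (7 of 7 higher). Of all 15660 genes, 7915 were higher in replicate 1. The counting interval left out 0 for only 1 of these lymphatic and 2 of these arterial genes. Arterial Sox17 and lymphatic Reln, the latter named after its value was seen, were each at -0.07 by total count.

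**Figure D5:**
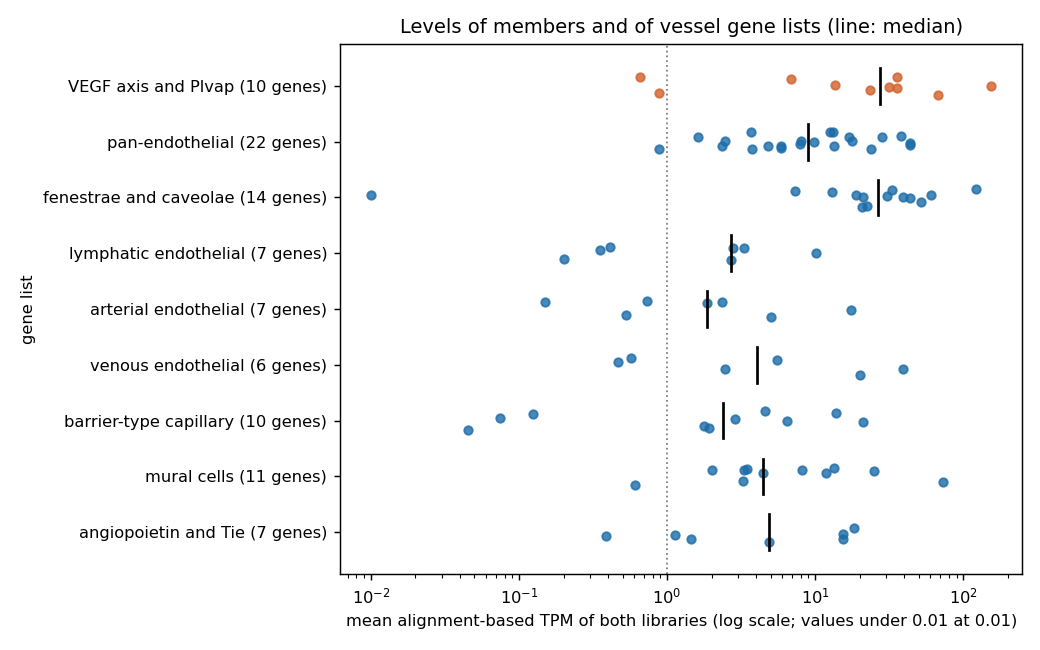
Mean alignment-based TPM (log axis, values under 0.01 drawn at 0.01) of the 10 genes (top row) and of the genes of 8 vessel lists without them, 1 point a gene and the median as a line, with 1 TPM dotted. Vegfa and Plvap lie to the right of every pan-endothelial gene, and most lymphatic and arterial genes lie further left.

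Genes that sense or answer to low oxygen, to which Vegfa is known to respond, were measured as a list. Epas1, the hypoxia-inducible factor of endothelial and some endocrine cells, stood at 51.94 TPM (replicate 1) and 54.61 TPM (replicate 2), with a ratio of 0.01 on the log2 scale. Ldha, a glycolytic enzyme, had a ratio of 0.35 and Bnip3, a mitophagy receptor, one of 0.23. Egln2 was lower in replicate 1, at -0.11 with a counting interval of -0.20 to -0.01. The list had a median of 0.05 over 14 genes with enough counts. The calls at its edges depended on the scaling, for 2 genes named after their values were seen. Egln3, an oxygen-dependent hydroxylase, had 2.29 TPM in replicate 1 and 1.61 in replicate 2, with a ratio of 0.60 that was 0.53 by total count and 0.51 by TPM, both under 1.5-fold. Hif3a, a further hypoxia-inducible factor, had 0.47 and 1.02 TPM from 97 and 134 counts, with a ratio of -0.47 (counting interval -0.87 to -0.09) that was -1.12 by TPM, past 1.5-fold. Whether oxygen has a part in the Vegfa values was not tested.

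Other ligands and partners were at lower levels than Vegfa and Vegfb. Of 17 genes, Pgf among them, 14 had 1 TPM or more in both libraries. Pdgfb, the endothelial ligand that recruits pericytes, had 15.62 TPM in replicate 1 and 18.63 in replicate 2, and Ramp2, the adrenomedullin receptor partner, had 13.56 and 14.56 TPM. Vegfd, the other ligand of Flt4 and named after its value was seen, had 7.16 and 10.55 TPM, above Vegfc in both libraries. Its log2 ratio was -0.47.

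Among class 3 semaphorins and plexins, which share the neuropilins with VEGF, 9 of 12 genes reached 1 TPM in both libraries. Plxnd1, an endothelial semaphorin receptor, had 52.39 TPM in replicate 1 and 56.83 in replicate 2, and Sema3f, a ligand of Nrp2, had 10.06 and 12.16 TPM. The angiopoietin and Tie list had 6 of 7 genes at that level, with the receptor Tek at 17.23 and 19.14 TPM and its relative Tie1 at 15.20 and 15.69 TPM. Of the Notch list 11 of 13 and of the VEGF receptor signalling list 20 of 21 reached it. The adaptor Dab2, which takes part in VEGF receptor uptake, led the signalling list at 103.60 and 110.61 TPM. That level was measured in whole gland. Which cells hold it was not tested, so it is no measure of VEGF receptor signalling. The medians of these 4 lists lay between -0.03 and 0.04.

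The quantifications differed by a small offset once both levels were expressed relative to the sum over protein-coding genes. The log2 difference, alignment-based over read-based, had a median of 0.12 over 11909 genes. It was smallest for Vegfa at -0.04 and reached 0.32 for Pgf and Flt1, with Plvap at 0.23 and Kdr at 0.22. On the deposited scale Vegfa had 114.37 and 195.14 TPM by alignment and 230.52 and 411.35 TPM by the read-based quantification, since protein-coding genes hold a different part of the total in each.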

How the data were processed

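Both libraries, labelled biological replicates 1 and 2, form 1 group. The genome build was mm10 (GRCm38), with annotation GENCODE M21, per the deposited notes on the files. The authors deposited, per the file headers, alignment-based expected counts, TPM and FPKM (column names as RSEM writes them) and read-based estimated counts and TPM (column names as kallisto writes them). Tool names and versions, and the use of strand, are not given in the sources used here. The deposited tables also hold the percent of each gene's TPM per isoform and interval bounds for TPM, a signal whose level is not stated. The isoform percent was recomputed here from TPM.

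Gene values of the read-based tables are sums over transcripts. Expected counts were rounded to whole numbers, and rows that are not genes were left out. The log2 ratio sets replicate 1 over replicate 2, both as counts plus 0.5 divided by library sizes that TMM scaled (edgeR 4.0.16, on the 16789 genes reaching 10 counts in each library). It was taken where the mean count was at least 20. The 95% interval of a ratio comes from the share of a gene's counts found in replicate 1 (Clopper-Pearson, exact). Counting error is all it covers, as the files record no molecular identifiers and reads may repeat a molecule. The libraries differed beyond sampling noise (chi-square per degree of freedom 35.45 over 15660 genes) and were kept as 2 replicates, whose spread may be technical. No test was made. DESeq2 1.42.0 size factors, total counts, read-based counts and other thresholds served as alternatives.

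The members and the 20 gene lists were chosen with earlier results of these data known. Named are all members and genes among the 4 of highest mean TPM in each list, unless said otherwise. Transcripts were named from those with 5% or more of their gene's TPM in either library by either quantification. Not all of these transcripts are named, and some of Vegfa, Vegfc, Pgf, Nrp1 and Nrp2 are left out. The ratio procedure was tested on simulated data. Coding forms were defined by the annotated exons. Whether CAST reads were assigned as well as others was not tested.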

Additional observations from a re-analysis of the deposited data

How the results depend on the processing

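No paired analysis was possible because there is only 1 group. Of the 10 genes, 8 reached 1 TPM in both libraries, and 9 did by read-based TPM, 10 by TPM over protein-coding genes and 8 by FPKM. The count over 1.5-fold apart was 2 under total counts, DESeq2 size factors, read-based counts, a pseudocount of 1, ratios of TPM and no minimum count, and 1 with a mean of 100 counts, under which Pgf is not compared. The count beyond counting error was 7 or 8 throughout. The log2 ratio ran from -0.78 to -0.68 for Vegfa and from 0.71 to 1.04 for Pgf, while those of Vegfc (-0.13 to 0.28) and Nrp2 (-0.04 to 0.05) changed sign. The Vegfa share without exons 6 and 7, 20.5% as reported, was 18.5% by read-based TPM, 12.6% of all transcripts and 18.7% of counts, and 19.9% to 21.1% without either replicate. The secreted share of Flt1, 29.3%, was 24.8% of all transcripts and 27.4% of counts, and 28.9% to 29.7% without either replicate. The added transcripts enlarge the denominator, and shares of counts differ from shares of TPM because TPM divides by length. The cause of the other moves was not tested. The count of 8 genes with the same leading transcript stayed at 8. Ratios need both libraries, so neither could be left out there. At 25 and 47 counts the depth limits Pgf most, and 2 libraries limit every SD.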
